A study of Mus musculus with 6 samples.

Results

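Complex I, the NADH:ubiquinone oxidoreductase of the mitochondrial inner membrane, was described through its nuclear genes in regulatory T cells (Tregs) of mice that had received MOG. The genes were chosen by symbol alone, as all rows whose name begins with Nduf followed by a, b, c, s, v, ab or af and a number. This rule took 45 of 23725 genes. They comprise 7 core subunits, 9 accessory subunits of the matrix arm, 19 accessory subunits of the membrane arm, the acyl carrier protein Ndufab1, 7 assembly factors, and Ndufa4 with its paralog Ndufa4l2. The last 9 genes are not subunits of the finished complex: assembly factors help to build it, and Ndufa4 is now placed in complex IV. The rule's genes are called complex I genes here. Subunits encoded in mitochondrial DNA, and the subunit Ndufb1, were not analysed here.

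The study set Tregs of wild-type (WT) mice beside Tregs of mice lacking MOG in the whole animal (MOG KO), with 3 libraries of each. All mice were of the C57Bl/6 strain, all had been immunised with MOG, a protein of the myelin sheath, and all cells came from lymph nodes. The sources used here do not give age, sex, the time after immunisation or how the knockout was made. Each library was made from the RNA of 500 cells, amplified by 15 cycles of PCR and read as single reads of 100 bases. Replicates are numbered within a genotype, and no label ties a number to its own mouse. A p-value here therefore reflects the spread of these samples, which may be partly technical. In RNA of pooled cells, fewer cells using a gene and less RNA per cell cannot be told apart.

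Complex I takes electrons from NADH and passes them along a chain of iron-sulphur clusters to ubiquinone, while its membrane arm pumps protons. The matrix arm holds the flavin, the clusters and the ubiquinone site, all of them in core subunits, and accessory subunits surround this core and are needed for assembly and stability. Tregs are known to rely on oxidative metabolism more than conventional effector T cells do, and loss of respiratory chain function is known to impair their suppressive activity.

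Counts assigned to genes totalled 2717969 to 4472549 per library, and 2701 to 4440 genes reached 10 reads-per-million (RPM), the level called present below. Mog itself, which should be absent from MOG KO cells, was at 1 count in WT replicate 1 and 0 in each of the other libraries, so its level here checks no label. The floor of a library, the RPM that a count of 0 allows (3 counts), was 0.671 to 1.1 RPM. All 8 T cell and Treg markers examined were present in at least 1 library, 6 of them in all 6, and Foxp3, the lineage factor of Tregs, was at 8.22 RPM in WT replicate 3 against 326 to 690 RPM in the other libraries. The same library was lowest for Cd3g (1.42 RPM against 177 to 272), Ctla4 (74.3 RPM against 450 to 612) and Cd4 (170 RPM against 419 to 722). The rest of these markers were not lowest there. Ikzf2 was at its highest (1294 RPM against 580 to 1185). Il2ra (708 RPM against 371 to 849), Cd3d (130 RPM against 102 to 288) and Cd3e (273 RPM against 254 to 448) lay within the range of the other libraries. Of other cell types, 0 of 2 CD8 T cell, 0 of 5 myeloid and 0 of 2 natural killer markers were present in any library. Among 4 B cell markers 2 were present, with summed levels of 2.21 to 206 RPM across WT libraries and 0 to 130 RPM across MOG KO libraries. Those present were Cd79b, at 205 RPM in WT replicate 2 and 130 RPM in MOG KO replicate 2, and Ms4a1, at 87.3 RPM in WT replicate 3, while Cd79a was at 0 in every library. Of 3 stromal and endothelial markers 1 was present, Pecam1, and the 3 summed to 1.98 to 91.6 RPM across WT libraries and 28 to 461 RPM across MOG KO libraries. Of 4 erythroid markers 3 were present, summing to 69.7 to 151 RPM across WT libraries and 20.6 to 67.5 RPM across MOG KO libraries. The part of these cells in the values below was not tested. Values per library are given in the order of replicates 1, 2 and 3, WT before MOG KO.

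Promoter windows of the 39 complex I genes matched by identifier to the window table (41 windows, some of genes never present, from 250 bases before to 50 after a transcription start, RefSeq, GRCm38.p6) were searched on both strands for letters tied to factors of mitochondrial gene expression. The NRF1 motif, named for a known activator of respiratory chain genes, was in 10 of 41 windows (24.4%), against 11% of the 8088 windows of other genes present in at least 1 library and 4.6% of all 32851 windows. Both overlapping windows of Ndufa5 are among the 10 and share the same match. Windows of Ndufaf4 and Ndufaf5, genes never present, are also among them. YY1 letters (AAGATGGC) were in 7 (17.1%), against 4.83% and 2.75%. ETS letters (CCGGAAG), which the factor GABP can bind, were in 5 (12.2%), against 20.3% and 8.86%. GGGCGG, the SP1 letters, were in 21 (51.2%), against 63.8% and 35.7%. TATAAA, searched as well, was in 5 (12.2%), against 7.26% and 13.6%. The median number of CG pairs per 100 bases was 6.67 in the complex I windows, against 7 and 2.33. All windows are thus poorer in CG pairs, and the part of this in the shares was not tested. No test was made of these shares, and a match is a description of letters, not of a bound site. All 7 YY1 matches lay on the gene's own strand with their first base 23 to 39 bases after the start, a position noticed after the matches were seen. Of the 391 other present windows with these letters, 185 (47.3%) had a match on that strand after the start. The YY1 letters contain ATG and may overlap a start codon.

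4 windows are printed because the values below turn on their genes: Ndufa3 and Ndufa6 were present in every library, Ndufs6 held both NRF1 and YY1 letters, and Ndufc2 had the smallest p of the 26 tested complex I genes. They lie at chr7:3617123-3617422 on the plus strand (Ndufa3), chr15:82354242-82354541 on the minus strand (Ndufa6), chr13:73328433-73328732 on the minus strand (Ndufs6) and chr7:97399753-97400052 on the plus strand (Ndufc2). Capitals mark the letters of NRF1, YY1 or ETS on either strand, and the sequences run 5′ to 3′ on the gene's strand.
Ndufa3: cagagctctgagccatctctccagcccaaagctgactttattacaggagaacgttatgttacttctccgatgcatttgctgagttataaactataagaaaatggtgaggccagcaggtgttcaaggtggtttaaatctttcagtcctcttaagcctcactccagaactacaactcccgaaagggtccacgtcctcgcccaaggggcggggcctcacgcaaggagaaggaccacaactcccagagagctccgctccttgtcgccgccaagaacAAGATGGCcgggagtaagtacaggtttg
Ndufa6: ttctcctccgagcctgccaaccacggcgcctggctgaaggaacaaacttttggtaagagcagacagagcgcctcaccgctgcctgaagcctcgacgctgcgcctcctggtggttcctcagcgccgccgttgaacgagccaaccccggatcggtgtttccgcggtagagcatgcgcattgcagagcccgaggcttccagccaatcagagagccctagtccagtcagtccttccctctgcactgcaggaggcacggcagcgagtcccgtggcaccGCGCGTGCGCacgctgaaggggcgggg
Ndufs6: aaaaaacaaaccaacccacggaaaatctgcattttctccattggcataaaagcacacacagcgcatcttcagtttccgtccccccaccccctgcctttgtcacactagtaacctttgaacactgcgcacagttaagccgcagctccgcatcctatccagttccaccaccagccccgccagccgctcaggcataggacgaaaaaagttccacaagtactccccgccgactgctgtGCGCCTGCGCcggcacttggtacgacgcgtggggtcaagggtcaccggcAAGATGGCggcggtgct
Ndufc2: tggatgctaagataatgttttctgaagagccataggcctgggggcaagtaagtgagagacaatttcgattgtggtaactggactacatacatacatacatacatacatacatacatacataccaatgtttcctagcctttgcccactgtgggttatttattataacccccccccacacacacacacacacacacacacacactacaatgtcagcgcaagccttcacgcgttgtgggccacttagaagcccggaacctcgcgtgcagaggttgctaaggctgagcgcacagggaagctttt
In Ndufa3 the YY1 letters begin 23 bases after the start. In Ndufa6 the NRF1 letters, on the opposite strand, begin 24 bases after it. Ndufs6 has NRF1 letters 16 bases before and YY1 letters 34 bases after its start, and the Ndufc2 window held none of the 5 motifs searched, TATAAA included.

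Complex I genes were read either well above or well below the presence level, and rarely near it. Of the 270 values (45 genes in 6 libraries), 128 were at 10 RPM or more, and the lowest of these was 24.3 RPM. Another 140 values were under 3 RPM, 65 of them 0 counts. The remaining 2 lay between 3 and 10 RPM, among them Ndufv2 in MOG KO replicate 1 (3.93 RPM). The median of the 128 higher values was 90.2 RPM and the highest was 430 RPM, for Ndufs1 in MOG KO replicate 1. Among genes present in at least 1 library, 44.4% of the complex I values and 52% of the values of all 7909 genes were under 3 RPM. Values between 3 and 10 RPM were not counted here over all genes, so the gap is not claimed as particular to complex I genes.

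**Figure D1:**
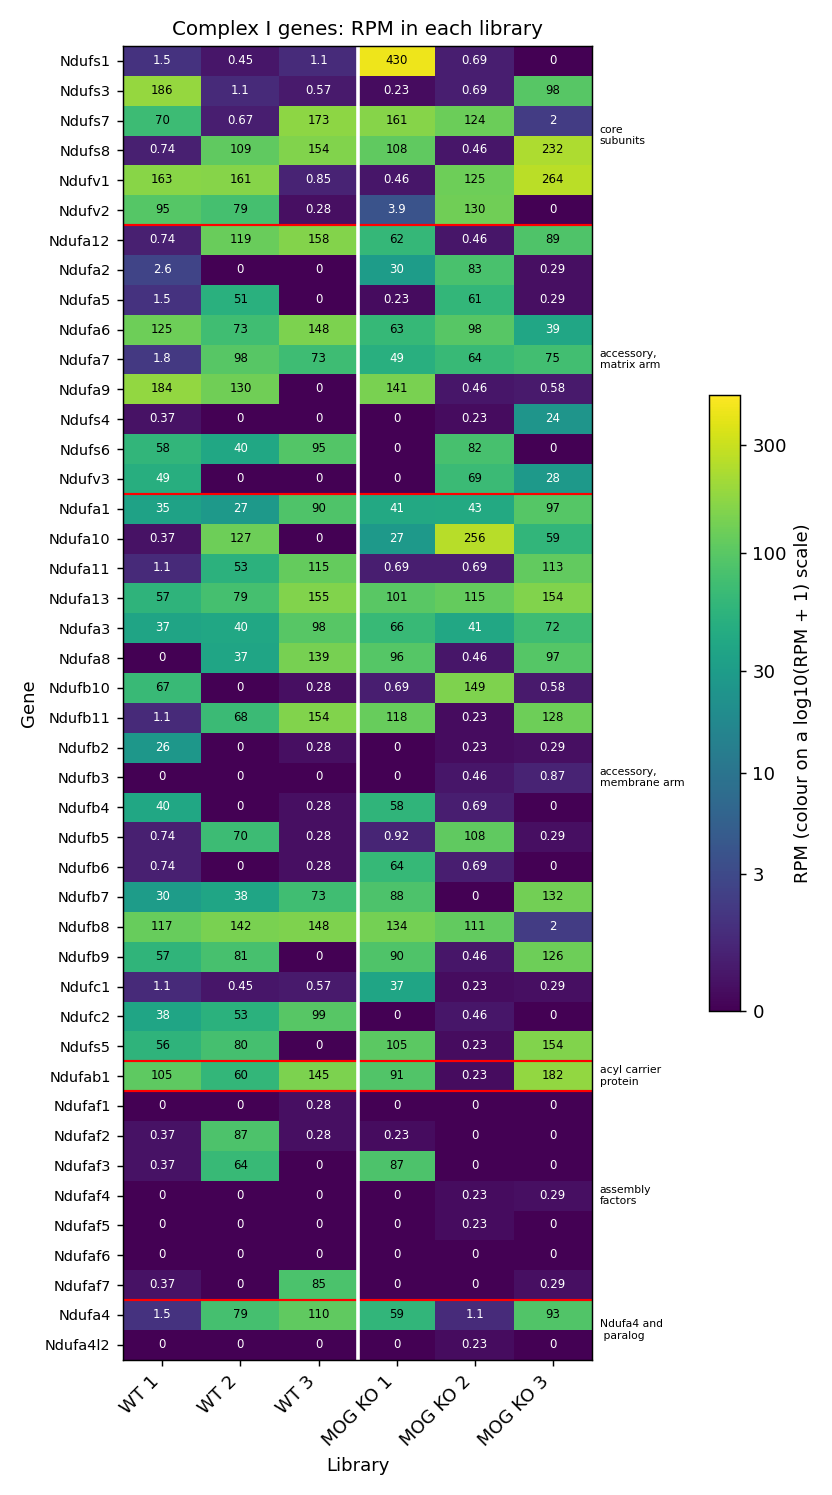
RPM of the complex I genes, without 1 core subunit that is not reported (rows, grouped by role, separated by red lines) in the 3 WT and 3 MOG KO libraries (columns), printed in each cell and coloured on a log10(RPM + 1) scale. Cells called present are at 24.3 RPM or more, and nearly all others are under 3 RPM. 4 genes are present in all 6 libraries and 6 in none.

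The 7 core subunits, which carry the redox centres, were all present in at least 1 library and none of them in all 6. Ndufs1, the largest core subunit and a carrier of iron-sulphur clusters, had 1.47, 0.447 and 1.13 RPM across WT libraries and 430, 0.688 and 0 RPM across MOG KO libraries. It was read at a high level in MOG KO replicate 1 alone, from 1861 counts, and by at most 4 counts in each other library. Ndufs7, which holds the last iron-sulphur cluster before ubiquinone, had 69.5, 0.671 and 173 RPM across WT libraries and 161, 124 and 2.03 RPM across MOG KO libraries. Ndufs7 was thus high in 2 libraries of each genotype, and the genotypes overlapped for both genes.

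Ndufs3, a core subunit next to the ubiquinone module, had 186, 1.12 and 0.567 RPM across WT libraries and 0.231, 0.688 and 98.2 RPM across MOG KO libraries. Ndufs8, which binds iron-sulphur clusters between the flavin and ubiquinone ends, had 0.736, 109 and 154 RPM across WT libraries and 108, 0.459 and 232 RPM across MOG KO libraries. Ndufs3 was high in 1 library of each genotype and Ndufs8 in 2 of each. Ndufv1, which binds NADH and the flavin, had 163, 161 and 0.85 RPM across WT libraries and 0.462, 125 and 264 RPM across MOG KO libraries. Its neighbour Ndufv2 had 95.3, 79.1 and 0.283 RPM across WT libraries and 3.93, 130 and 0 RPM across MOG KO libraries. Both were low in WT replicate 3 and MOG KO replicate 1, and only Ndufv1 was read in MOG KO replicate 3. Between 3 and 4 of the 7 core genes were present in each library, 4, 4 and 3 in WT and 3, 4 and 4 in MOG KO.

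4 complex I genes were present in all 6 libraries, all of them small accessory subunits. Ndufa1, of the membrane arm, had 34.6, 27.1 and 89.9 RPM across WT libraries and 41.4, 42.9 and 97.1 RPM across MOG KO libraries. Ndufa3, also of the membrane arm, had 37.2, 39.6 and 97.8 RPM across WT libraries and 65.6, 41 and 72.5 RPM across MOG KO libraries. Ndufa13, which is also known as the interferon and retinoid response protein GRIM-19, had 56.7, 79.1 and 155 RPM across WT libraries and 101, 115 and 154 RPM across MOG KO libraries. For these 3 genes the highest library was 2.63 to 3.59 times the lowest, and WT replicate 3 was the highest WT library.

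Ndufa6, a matrix arm subunit that holds the acyl carrier protein, had 125, 73.1 and 148 RPM across WT libraries and 62.9, 98.4 and 38.5 RPM across MOG KO libraries. Its means were 115 ± 38.2 RPM across WT libraries and 66.6 ± 30.1 RPM across MOG KO libraries (SD, n = 3 each), with overlapping libraries. Those of Ndufa1 were 50.5 ± 34.3 and 60.4 ± 31.7 RPM, of Ndufa3 58.2 ± 34.3 and 59.7 ± 16.5 RPM, and of Ndufa13 96.9 ± 51.4 and 123 ± 27.3 RPM. Per kilobase of transcript, the mean levels over the 6 libraries were 168 RPM for Ndufa3, 154 for Ndufa6, 132 for Ndufa1 and 87.9 for Ndufa13. The ranges over libraries of these levels per kilobase overlapped between every neighbouring pair in that order.

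The 4 genes of 39 complex I genes ever present make up 10.3%, and 704 of 7909 genes (8.9%) were present in all 6 libraries over the whole table. The middle of the distribution differed more in size: 12 complex I genes (30.8%) were present in 4 libraries, against 12% of all genes, and 7 (17.9%) in 1 library, against 32.1%. This was not particular to complex I. Genes of complexes II to V were present in 4 libraries in 29.3% of cases and in 1 library in 0%. The same shares for the complex I subunits alone were 30.6% and 13.9%. Across the 39 genes, the number of libraries had a Spearman correlation of -0.39 and a Pearson correlation of -0.3 with transcript length, given as a description over genes that share the same libraries and kit. Ndufb2, the gene with the longest transcript model (4371 bases), was present in 1 library. Ndufab1, with the next longest model of the genes present (3479 bases), was present in 5. Counts are per gene, so the transcripts read may be shorter than these models.

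**Figure D2:**
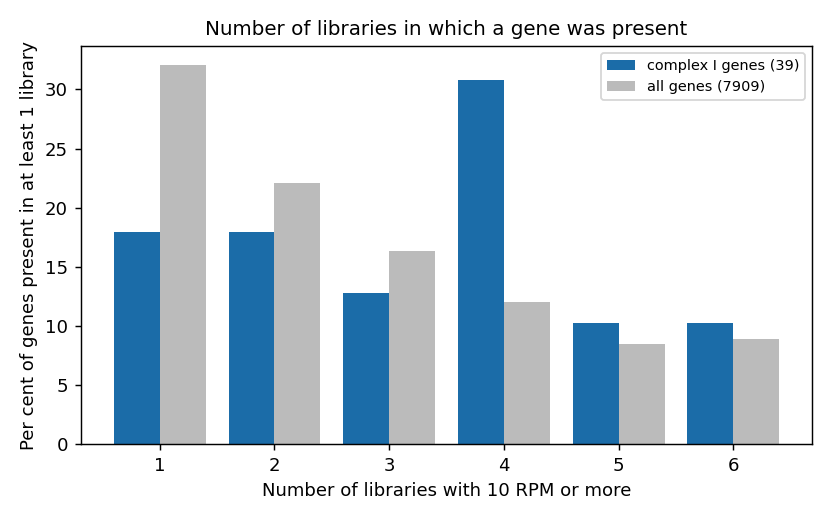
Per cent of genes (y axis) present at 10 RPM or more in 1 to 6 libraries (x axis), for the 39 complex I genes and the 7909 genes of the table that were present in at least 1 library. Complex I genes are most often present in 4 libraries (30.8%), and all genes in 1 (32.1%).

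Among the accessory subunits of the matrix arm, 9 of 9 were present somewhere and only Ndufa6 in all 6 libraries. Ndufa7 came next, present in 5, with 1.84, 98.4 and 72.6 RPM across WT libraries and 49, 64.4 and 75.1 RPM across MOG KO libraries. Ndufs4, a late-joining subunit whose loss is a known cause of Leigh syndrome, was present in MOG KO replicate 3 alone (24.3 RPM, 84 counts) and had at most 1 count elsewhere. Ndufs6, a zinc-binding subunit near the NADH end, had 58.5, 40 and 95 RPM across WT libraries and 0, 81.9 and 0 RPM across MOG KO libraries. Ndufa2, a thioredoxin-like subunit, had 2.58, 0 and 0 RPM across WT libraries and 30, 83.5 and 0.29 RPM across MOG KO libraries. Ndufs6 was thus present in every WT library and Ndufa2 in none, but each overlapped between genotypes through MOG KO replicate 2 or 3.

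The remaining named subunits of this arm were read in both genotypes. Ndufa9, which binds a nucleotide cofactor near the ubiquinone module, had 184, 130 and 0 RPM across WT libraries and 141, 0.459 and 0.58 RPM across MOG KO libraries. Ndufa12, at the NADH end, had 0.736, 119 and 158 RPM across WT libraries and 62.2, 0.459 and 88.7 RPM across MOG KO libraries. Ndufv3, a peripheral subunit, had 48.6, 0 and 0 RPM across WT libraries and 0, 68.6 and 27.5 RPM across MOG KO libraries. None of these 3 genes was high in every library of a genotype.

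Of the 19 accessory subunits of the membrane arm, 18 were present somewhere and 3 in all 6 libraries. Ndufb3, a subunit of the far end of the membrane arm, was the exception, with 5 counts in all (0 in WT, then 0, 0.459 and 0.869 RPM). That is at or under the floor of each library. Ndufb8, a membrane arm subunit often used as a protein marker of complex I, had 117, 142 and 148 RPM across WT libraries and 134, 111 and 2.03 RPM across MOG KO libraries. It was even in 5 libraries and low in MOG KO replicate 3. Ndufa10, a kinase-like subunit, had 0.368, 127 and 0 RPM across WT libraries and 27, 256 and 58.8 RPM across MOG KO libraries. Ndufs5, on the intermembrane face, had 56.3, 80 and 0 RPM across WT libraries and 105, 0.229 and 154 RPM across MOG KO libraries, and Ndufb9 was present in the same 4 libraries. The acyl carrier protein Ndufab1, which also serves mitochondrial fatty acid synthesis, had 105, 60.1 and 145 RPM across WT libraries and 90.6, 0.229 and 182 RPM across MOG KO libraries.

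Ndufc2, an accessory subunit of the membrane arm, was the sole complex I gene present in all 3 libraries of one genotype and in none of the other. It had 37.9, 52.5 and 99.5 RPM across WT libraries and 0, 0.459 and 0 RPM across MOG KO libraries. The pooled counts were 689 and 2, so WT stood 390 times above MOG KO (95% limits from counting error alone, 108 and 3228). Of the 7909 genes ever present, 74 (0.936%) were present in all WT and no MOG KO libraries. Ndufc2 (Entrez 68197) lies on chromosome 7 from 97400003 to 97407800 (GRCm38.p6, protein-coding), with no exon shared with another gene model.

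Assembly factors build the complex and leave it. Of 7 within the rule, 3 were present in at least 1 library, beside 7909 of 23725 genes over the whole table. The other 4, Ndufaf1, Ndufaf4, Ndufaf5 and Ndufaf6, had at most 1 count in any library. Ndufaf3, which acts on the ubiquinone module, was present in WT replicate 2 (64.2 RPM) and MOG KO replicate 1 (86.7 RPM). Ndufaf7, a methyltransferase, was present in WT replicate 3 alone (85.3 RPM). Ndufaf2, a paralog of Ndufa12, had 0.368, 87 and 0.283 RPM across WT libraries and 0.231, 0 and 0 RPM across MOG KO libraries. Its groups did not overlap by order, but it was present in 1 library only, and 1955 bases of its exons overlap a gene on the opposite strand. It falls outside the rule for naming genes and was named after its values were seen. 0 of the 7 had counts enough to be tested.

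Ndufa4, now placed in complex IV, had 1.47, 78.9 and 110 RPM across WT libraries and 59.2, 1.15 and 92.7 RPM across MOG KO libraries. Its paralog Ndufa4l2, known to be induced by hypoxia, had 1 count in 1 library. 5 genes shared the pattern of Ndufa4, present in WT replicates 2 and 3 and MOG KO replicates 1 and 3 and under 10 RPM in the others: Ndufa4, Ndufa8, Ndufa12, Ndufb11 and Ndufs8. They are 12.8% of the 39 complex I genes, and 47 of all 7909 genes (0.594%) had this pattern, which was picked after the values were seen and so was not tested.

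The number of complex I genes present was 20, 27 and 19 in WT and 24, 17 and 21 in MOG KO, a mean of 22 ± 4.36 and 20.7 ± 3.51 (SD, n = 3 each). The genotypes overlapped, WT replicate 2 being highest and MOG KO replicate 2 lowest. As shares of the 39 genes ever present these are 51.3%, 69.2% and 48.7% in WT and 61.5%, 43.6% and 53.8% in MOG KO. The same shares over all 7909 genes were 49.6%, 56.1% and 34.2%, then 44.6%, 43.7% and 41.3%. WT replicate 2, highest for complex I genes, was also highest for all genes (4440 present) and the deepest library. Other libraries did not follow depth. WT replicate 1, the shallowest at 2717969 counts, had 3923 genes present. MOG KO replicate 2, at 4361315 counts, had the fewest complex I genes. The part of depth was not tested.

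**Figure D3:**
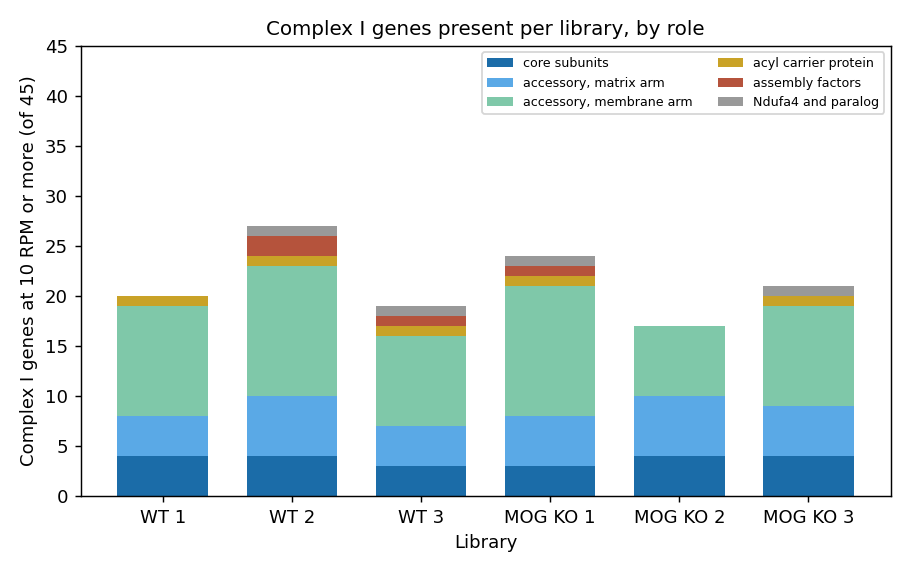
Number of complex I genes at 10 RPM or more (y axis, of 45) in each library (x axis), stacked by role. Totals run from 17 (MOG KO replicate 2) to 27 (WT replicate 2), and 3 or 4 core subunits are present in every library.

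Summed over the 45 genes, the level was 1620, 2293 and 2340 RPM across WT libraries and 2312, 1957 and 2491 RPM across MOG KO libraries. The means were 2084 ± 403 and 2254 ± 272 RPM (SD, n = 3 each), so the difference of 170 RPM was smaller than the spread within either genotype. It was -62.5 RPM without WT replicate 1. The highest gene of a library was not the same throughout. It was Ndufs3 in WT replicate 1, Ndufs7 in WT replicate 3, Ndufs1 in MOG KO replicate 1 and Ndufv1 in MOG KO replicate 3. Replicate 2 of each genotype is left out of this list. Between 12 and 23 complex I genes (median 19, 6 pairs) were present in one but not the other of 2 libraries sharing a genotype, and 12 to 20 (median 15, 9 pairs) where the genotypes differed. Over all genes the numbers were 3111 to 3605 where the genotype was shared and 3064 to 3518 where it differed.

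MOG KO was compared with WT by edgeR's quasi-likelihood test over 4088 genes, of which 26 were complex I genes; the other 19 had too few counts. None of the 26 passed a Benjamini-Hochberg adjusted p of 0.05 in edgeR, where 0 of all 4088 genes (0.0%) did. At an unadjusted p under 0.05 there was 1 complex I gene, against 209 of all genes (5.11%). Positive log2 fold changes (MOG KO minus WT) were found for 13 of 26 and negative ones for 13, with 52.1% positive over all genes tested, and the medians were 0.03 and 0.06. Without WT replicate 3, the library of low Foxp3, 20 of 32 tested complex I genes were positive with a median of 0.36, against a median of 0.15 over all genes tested. The median standard error (SE) was 2.41, so for most of these genes even large fold changes lay within the interval.

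The gene of smallest p was Ndufc2, at -8.47 ± 2.74 on the log2 scale (SE, 3 libraries per genotype, 95% interval -14.82 to -2.12, unadjusted p = 0.0155, adjusted p = 0.645 in edgeR). DESeq2, an alternative tool, put it past the threshold (-8.98 ± 2.49, adjusted p = 0.00634), 1 of 27 complex I genes to which it gave an adjusted p, where it called 745 of 4648 genes (16.0%). limma-voom called 0 of the 26 and 0 of 4088 genes (0.0%). Leaving out each library in turn, the edgeR log2 fold change of Ndufc2 lay between -10.97 and -7.87. Ndufc2 was the single gene among the 26 tested whose groups did not overlap. Of the 39 complex I genes ever present, 2 had groups that did not overlap (Ndufc2 and Ndufaf2), both with MOG KO below, against 8.6% of all genes ever present (4.77% with MOG KO below and 3.83% with it above). Among genes tested, 4.57% had all MOG KO libraries below all WT, and 10.5% had groups that did not overlap in either direction.

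Ndufa2 had the largest positive value, 5.43 ± 3.01 (95% interval -1.58 to 12.44), from MOG KO replicates 1 and 2. Without WT replicate 1 it was 10.26. The remaining 24 lay between -1.31 (Ndufs6, ± 2.79) and 1.47 (Ndufa10, ± 2.71). In the same range were Ndufa9 (-1.2 ± 2.9), Ndufv3 (1 ± 3.09), Ndufa12 (-0.98 ± 2.38), Ndufs5 (0.94 ± 2.65) and Ndufb8 (-0.81 ± 1.94). Single libraries set the size of these values: Ndufs6 was at -10.99 without MOG KO replicate 2 and -0.72 without MOG KO replicate 3, and Ndufa10 at 9.07 without WT replicate 2 and 0.1 without MOG KO replicate 2. Ndufa9 was at -7.5 without MOG KO replicate 1 and -0.46 without WT replicate 1, and Ndufv3 at 10.01 without WT replicate 1 and -0.2 without MOG KO replicate 2. Ndufa12 was at -0.22 without WT replicate 3, and without MOG KO replicate 3 Ndufs5 was at 0.2 and Ndufb8 at -0.22. The evenly read genes had narrower intervals: -4.84 to 3.09 for Ndufa6 (-0.87 ± 1.72), -3.67 to 4.17 for Ndufa13 (0.25 ± 1.7), -3.9 to 4.21 for Ndufa1 (0.15 ± 1.76) and -4.05 to 3.91 for Ndufa3 (-0.07 ± 1.72). Of the 5 tested core subunits 4 were positive, with a median of 0.26: Ndufv1 was at 0.31 ± 2.42, Ndufs8 at 0.26 ± 2.42, Ndufs7 at 0.07 ± 2.31 and Ndufv2 at -0.35 ± 2.73. Ndufa1, Ndufa3, Ndufa13, Ndufs7, Ndufs8, Ndufv1 and Ndufv2 each changed sign when 1 library was left out. The adjusted p in edgeR was 0.9996 or higher for every tested complex I gene other than Ndufc2.

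**Figure D4:**
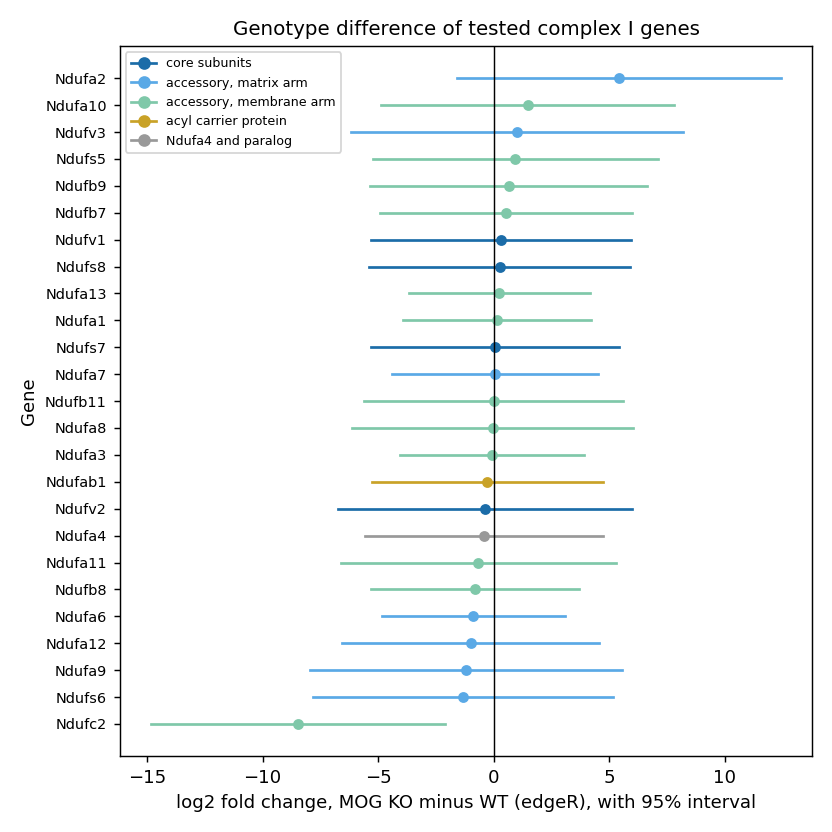
Log2 fold change of MOG KO over WT (x axis, points, edgeR) with its 95% interval (lines) for the tested complex I genes, without 1 core subunit that is not reported (rows, sorted, coloured by role). Every interval drawn crosses 0 except that of Ndufc2 (-14.82 to -2.12), which did not pass after adjustment.

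By role, the matrix arm's 7 tested accessory genes were 3 positive and 4 negative (median -0.87), and the membrane arm's 12 were 6 and 6 (median 0.08). The 25 tested subunit genes, without Ndufa4, were 13 positive and 12 negative with a median of 0.06. 6 complex I genes on chromosome 17, where Mog lies at 37010740 to 37023398, include Ndufa7, 3.19 Mb from Mog, and Ndufv3, 5.49 Mb from it. Ndufa7 had a log2 fold change of 0.06 ± 1.93.

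The genes of the other respiratory complexes and of their regulators gave 0 calls as well. Complex II had 3 of 3 tested genes positive and 0 of 4 present in all 6 libraries. In complex III 8 of 9 were positive and 1 of 9 was present in all 6, in complex IV with cytochrome c 7 of 11 were positive and 6 of 12 present in all 6, and in ATP synthase 9 of 15 and 6 of 16. Complex I subunits were present in all 6 libraries in 4 of 36 cases (11.1%), and complexes II to V in 13 of 41 (31.7%), a difference given as a description. The genes of smallest p in each list were Sdha (3.66 ± 1.97), Uqcrq (1.94 ± 2.31), Cox5a (1.88 ± 2.34) and Atp5l (3.05 ± 2.53), none past the threshold (adjusted p = 0.9996 in edgeR for each). Without WT replicate 2, Sdha was at 7.34, Cox5a at 4.27 and Atp5l at 7.74, and without WT replicate 1 Uqcrq was at 6.88. Of the next smallest p, Sdhd (0.52), Sdhb (0.21), Uqcrfs1 (1.29), Uqcrc1 (1.26), Cox5b (1.56), Atp5g3 (1.96) and Atp5b (0.69) were positive and Cycs (-1.45) negative, and Sdhb, Sdhd and Cycs changed sign when 1 library was left out.

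Sdha, the flavoprotein of complex II, had 5.52, 121 and 0.85 RPM across WT libraries and 463, 474 and 649 RPM across MOG KO libraries. Its groups did not overlap, with the 3 MOG KO libraries above all WT libraries. Atp5l, a membrane subunit of ATP synthase, had 1.1, 44.5 and 0 RPM across WT libraries and 125, 143 and 103 RPM across MOG KO libraries, again without overlap. Over all genes tested, 5.97% had every MOG KO library above every WT library.

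Among 12 transcription factors and coactivators of mitochondrial genes 3 were tested, 2 positive and 1 negative. The negative one was Yy1, whose letters were searched above, with 39.7, 156 and 94.7 RPM across WT libraries and 5.31, 30 and 16.5 RPM across MOG KO libraries. All its MOG KO libraries lay below all WT libraries, with a log2 fold change of -2.52 ± 1.89 (95% interval -6.88 to 1.85, adjusted p = 0.9996 in edgeR). Over all genes tested, 4.57% had every MOG KO library below every WT library. A link between the level of Yy1 and the complex I genes was not tested. Gabpb1, a subunit of GABP, had a log2 fold change of 0.11 ± 1.58. Tfam, which packages mitochondrial DNA, was high in replicate 2 of each genotype (109 and 172 RPM) and at 0 to 4.39 RPM elsewhere. Of 10 assembly factors outside the rule 6 were present somewhere and 1 was tested. That gene, Foxred1, had 483, 0 and 828 RPM across WT libraries and 0.231, 334 and 0.58 RPM across MOG KO libraries (-2.07 ± 2.99).

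**Figure D5:**
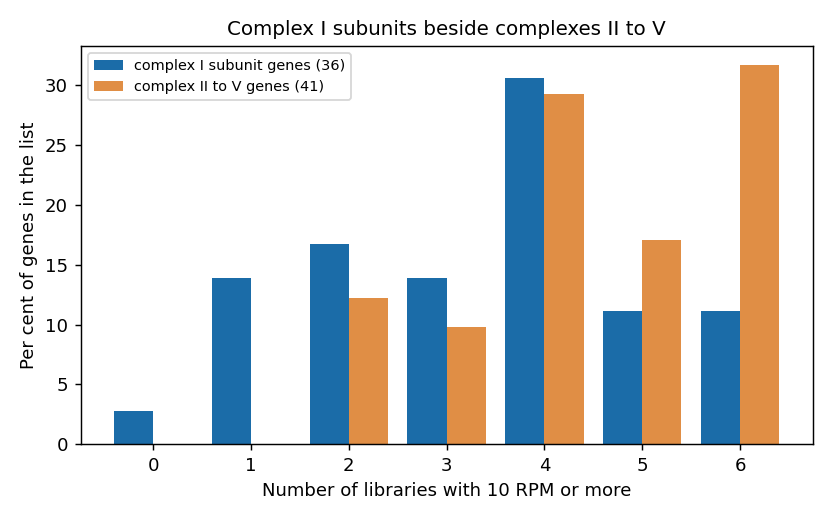
Per cent of listed genes (y axis) present at 10 RPM or more in 0 to 6 libraries (x axis), for the 36 complex I subunit genes and 41 genes of complexes II to V. Presence in all 6 libraries is 11.1% for complex I and 31.7% for complexes II to V. Presence in 4 libraries is 30.6% and 29.3%.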

How the data were processed

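Gene expression was read in 3 WT and 3 MOG KO libraries. The authors deposited whole-number counts of reads per gene, which are exon counts going by the table's name, and the same data as RPM. Rescaling the counts by their totals gave the deposited RPM values, and 100% of the RPM values were whole reads within 0.001 reads. edgeR on those reads, an alternative added after the data were seen, called 0 of 4088 genes, as on the counts. STAR 2.3.1, R 3.2.2 and build mm10 are named, per the submitters' processing notes. The counting tool, gene models, strand setting and handling of multiply matching reads were not given in the sources used here. For that reason 19 complex I genes whose GENCODE M21 exons overlap another gene, and 6 with a near-identical transcript of another gene (blastn 2.17.0, at least 95% identity over at least 100 bases and 50% of the transcript), may share reads. The 19 include Ndufa13, Ndufs1 and Ndufs6, and the 6 are Ndufa12, Ndufab1, Ndufb11, Ndufs3, Ndufs5 and Ndufs6.

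edgeR 4.0.16 in R 4.3.3 was run on all genes (filterByExpr, TMM, robust quasi-likelihood, genotype alone, Benjamini-Hochberg, threshold 0.05). The code was also run on simulated counts. These gave every gene the same relative spread, unlike the genes here, so that run cannot vouch for the number of calls. The SE was taken from the fold change and the root of its F statistic. Alternatives were DESeq2 size factors, no filter, 50 counts in 3 libraries, DESeq2 1.42.0, limma-voom (limma 3.58.1), the replicate number as a block, other presence levels and each library left out. Reads carry no molecular identifiers, so floors and counting intervals cover counting error only. Transcript length is that of the GENCODE protein-coding transcript with the longest coding sequence and, where these were equal, the longest transcript. The correlation with length and the levels per kilobase rest on these models. The genes and lists were chosen with earlier results of these data known. Named with all values are the core subunits (1 of them is not reported here, though it stays in all counts and sums), genes whose groups do not overlap and that have 10 RPM in 3 libraries, genes present in all 6 and the 10 of smallest p; of other lists, up to 3 of smallest p.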

Additional observations from a re-analysis of the deposited data

How the results depend on the processing

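The count of 0 calls over all genes and over complex I genes held in edgeR under each alternative scaling, filter and left-out library, and in limma-voom. DESeq2 called 745 genes and 1 complex I gene, Ndufc2 (log2 fold change -8.98). The median log2 fold change of complex I genes, 0.03, was -0.16 with DESeq2 size factors, -0.12 in DESeq2, -0.49 in limma-voom and -0.42 with the replicate block, where the medians of all genes were 0.06, -0.31, -0.03 and 0.0, against 0.06 at first. Leaving out each library moved it between -0.29 and 0.36, and the number of positive genes between 10 of 29 (without WT replicate 1) and 20 of 32 (without WT replicate 3), where 53.8% and 54.2% of all genes were positive. With no filter 28 of 44 were positive, against 46.8% of all genes, whose median was -0.18. The difference in summed level ranged from -62.5 to 318 RPM, and was negative without WT replicate 1 alone. Each left-out library also changed which genes were tested, while DESeq2 size factors, limma-voom and the replicate block kept the same 26 of 4088. The cause of these moves was not tested.

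Single genes whose sign changed were Ndufa1 (-0.17) and Ndufa13 (-0.02) in DESeq2, Ndufa3 in limma-voom (0.1) and with the replicate block (0.09), Ndufv1 (-0.42 and -0.29 likewise), Ndufs7 with DESeq2 size factors (-0.18) and in DESeq2 (-0.35), and Ndufs8 in DESeq2 (-0.03) and limma-voom (-0.31). Gabpb1 was -0.17 with DESeq2 size factors, and Sdhb -0.0 with them and -0.21 in DESeq2. The cause was not tested.

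Leaving out each library, the log2 fold changes that changed sign ranged from -0.39 to 0.99 for Ndufa1, -0.02 to 0.89 for Ndufa13, -0.31 to 0.66 for Ndufa3, -0.5 to 1.47 for Ndufs7, -0.86 to 1.07 for Ndufs8, -0.7 to 0.92 for Ndufv1, -4.9 to 0.28 for Ndufv2, -0.2 to 10.01 for Ndufv3, -8.11 to 0.19 for Cycs, -0.43 to 3.48 for Gabpb1, -0.31 to 1.86 for Sdhb, -0.04 to 1.3 for Sdhd and -4.02 to 10.75 for Tfam. Of genes that kept their sign, the ranges were -10.99 to -0.72 for Ndufs6, 0.1 to 9.07 for Ndufa10, -7.5 to -0.46 for Ndufa9, 4.87 to 10.26 for Ndufa2, -1.72 to -0.22 for Ndufa12, 0.2 to 1.61 for Ndufs5, -1.3 to -0.22 for Ndufb8, -1.3 to -0.54 for Ndufa6, 3.1 to 7.34 for Sdha, 1.36 to 6.88 for Uqcrq, 0.71 to 5.3 for Uqcrc1, 0.72 to 2.05 for Uqcrfs1, 1.25 to 4.27 for Cox5a, 1.03 to 3.49 for Cox5b, 2.48 to 7.74 for Atp5l, 1.01 to 2.65 for Atp5g3, 0.35 to 1.08 for Atp5b and -10.12 to -1.07 for Foxred1.

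At a level of at least 1 count, 18 complex I genes were present in all 6 libraries, and 38, 31, 39 and 33 in WT replicates 1 and 3 and MOG KO replicates 2 and 3. Groups of 1 gene, Ndufc2, did not overlap when all libraries of one group had to reach 10 RPM, against 2 without that condition. Samples of the same replicate number did not deviate together (correlations over genes of -0.02, 0 and -0.02 for numbers 1, 2 and 3), so the numbers were not taken to pair them. With the replicate block 143 genes had an unadjusted p under 0.05 against 209 without it, and 0 passed in either. With 3 libraries per genotype and a median SE of 2.41, smaller differences of these genes could not be seen, and a value of 0 counts means under 0.671 to 1.1 RPM.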
